A study of Mus musculus with 6 samples.

Results

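Lipid-associated macrophage nuclei of mouse white fat were taken as nuclei that held at least 2 UMIs (unique molecular identifiers, 1 per captured RNA molecule) of Spp1, Gpnmb and Trem2 together. They also had to hold at least 1 UMI of the macrophage genes Csf1r, Adgre1, Lyz2 and Sirpa, at most 1 UMI of Epcam, Ehf, Plin1, Pdgfra, Ptprb and Upk3b, which mark epithelial, adipocyte, fibroblast, endothelial and mesothelial nuclei, and at most 1 UMI of the lymphocyte genes Skap1, Themis, Bank1 and Pax5. By this rule 102 nuclei were members, out of 27074 nuclei kept after quality filters and 50859 deposited barcodes. The series was a single-nucleus RNA sequencing study of white adipose tissue of female C57BL/6J mice, an inbred laboratory strain, none of which is labelled as treated. It held 6 libraries, 2 of subcutaneous (inguinal) adipose tissue (SAT) at 2 months (SAT_2M), 2 of SAT at 24 months (SAT_24M) and 2 of visceral (gonadal) adipose tissue (VAT) at 24 months (VAT_24M). The labels give 24 months where the study's own text gives a somewhat higher age for the same animals, and the labels' age is used here. The labels call the cells of every library adipocytes, whereas the member nuclei held macrophage RNA, as described below. Per the study's text both depots were taken from the same pair of mice at each age, so the 24-month SAT and VAT libraries share animals, but which SAT and which VAT library came from 1 mouse is not stated.

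Lipid-associated macrophages are a state of tissue macrophages that gather around lipid-laden or dying adipocytes, take up lipid and break it down in their lysosomes. Trem2 is a surface receptor that binds lipids and apolipoproteins and signals through the adaptor Tyrobp, Gpnmb is a transmembrane glycoprotein of lysosomes and melanosomes that is induced when lysosomes are loaded, and Spp1 encodes osteopontin, a secreted ligand of integrins and Cd44. Resident macrophages of fat, in contrast, are known for Mrc1, F13a1, Lyve1 and Cd163. Lysosomal genes are known targets of the related factors Mitf, Tfeb and Tfe3, which bind short palindromic DNA elements.

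The 6 libraries held 8061862 to 16226690 UMIs in total, and the kept nuclei had median depths of 1380 to 1878 UMIs. Any pair of libraries shared 0.42 to 0.769% of the smaller library's barcodes, and 3 such shared barcodes belonged to member nuclei. The members of 1 library together held 6333 to 87424 UMIs. Their median depth was 1353 to 2845 UMIs, against 1393 to 1716 UMIs in the other macrophage nuclei. In VAT_24M replicate 1 the members had a higher median share of mitochondrial UMIs than the other macrophage nuclei (6.52% against 1.85%), and in VAT_24M replicate 2 a lower one (1.68% against 3.87%). Scrublet, a doublet caller, marked 0.0519 to 0.562% of the kept nuclei and no member, a rate too low to rely on, so that no doublet was removed by it. The gates on genes of other cell types limit doublets of unlike cells, and the study's methods describe a microscope check of DAPI-stained nuclei for singlets before loading.

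The 3 genes of the rule were spread unevenly over the members. The members were chosen by these values, which are therefore a description and were not tested. Gpnmb was present in 90 of the 102 members with 836 UMIs in all, Trem2 in 47 with 107 UMIs and Spp1 in 26 with 772 UMIs. In 42 members Gpnmb was the only one of the 3, in 9 Trem2 was (8 of these 9 were SAT nuclei), in 3 Spp1 was, and 13 members held all 3. Levels are given as CPM, the usual scaling in which the UMIs of a gene are divided by all UMIs of the nuclei in question and multiplied by the same constant in every library. Gpnmb reached 3430 and 4953 CPM in the members of VAT_24M replicates 1 and 2, where it was present in 28 of 30 and in 50 of 51 nuclei. In the SAT members it was at 6355 and 1284 CPM in SAT_2M and at 2369 and 1632 in SAT_24M, from 2 of 5, 3 of 8, 3 of 3 and 4 of 5 nuclei. Gpnmb was thus present in nearly every VAT member and in 12 of the 21 SAT members.

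Spp1 was carried by a few nuclei. It was at 238 and 435 CPM in the VAT members, at 34390 and 233 in SAT_2M, and at 0 and 7540 in SAT_24M. The highest of these values was due mostly to 1 nucleus of SAT_2M replicate 1, which held 541 of the 772 Spp1 UMIs (70.1%). That nucleus had 6043 UMIs in all, among them 85 of Gpnmb, 6 of Trem2, 116 of Lyz2 and 739 of Apoe. The level over all SAT members was 13230 CPM with it and 3670 without it, the latter from 5 nuclei. Trem2 was at 460 and 355 CPM in the VAT members and at 1394, 642, 0 and 700 in those of SAT_2M and SAT_24M. Lyz2, a lysozyme of macrophages and a gene of the rule, was present in 70 of the 102 members. Trpm2, a calcium channel that is often listed with this state, was present in 12 and went against the name, at 14.8 and 160 CPM in the VAT members against 60.1 and 192 in the other macrophage nuclei.

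**Figure D1:**
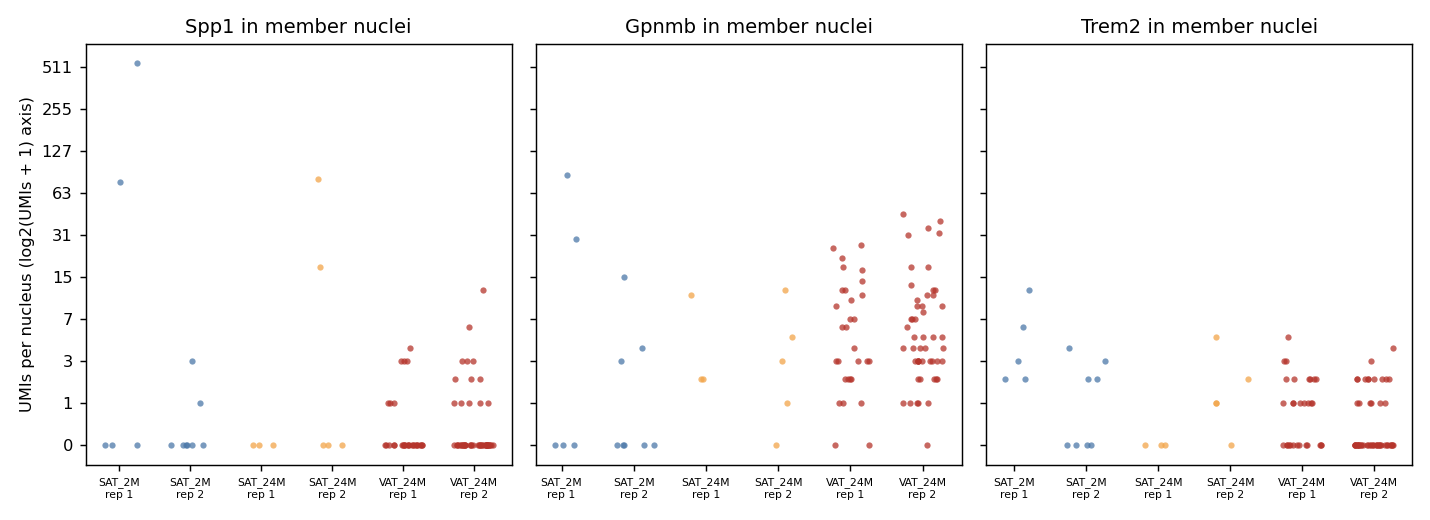
UMIs of Spp1, Gpnmb and Trem2 (y axis, log2 of UMIs + 1) in each of the 102 member nuclei, by library on the x axis; each point is 1 nucleus. Gpnmb was above 0 in 28 of 30 and 50 of 51 VAT members, while Spp1 was at 0 in most nuclei and reached 541 UMIs in 1 nucleus of SAT_2M replicate 1.

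At the threshold, 19 members held exactly 2 UMIs of the 3 genes, and 81 nuclei that met every other gate held exactly 1. The nuclei just inside had a median depth of 1413 UMIs and those just outside 1754. Atp6v0d2 was at 384 CPM just inside and 202 just outside, Mmp12 at 799 and 429, and Lgals3 at 384 and 122. Few nuclei carried these UMIs. Just inside, 22 of 25 Mmp12 UMIs were in 1 nucleus and the 12 Atp6v0d2 UMIs in 2, and without the highest nucleus of each gene Mmp12 was at 101 inside and 204 outside, Atp6v0d2 at 176 and 112 and Lgals3 at 247 and 98.6, so that the order of Mmp12 turned. The 55 members with at least 5 UMIs of the 3 genes had a median depth of 2047 UMIs and 1568, 1204 and 1931 CPM of the same genes. Before the gates for other cell types, 251 kept nuclei held at least 2 UMIs of the 3 genes, 114 of them with no UMI of the macrophage genes. The tissue-type genes removed 25 of the remaining 137, the lymphocyte genes 11, with 1 removed by both.

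The macrophage identity of the members was checked against markers that the rule had not used. Of 18 general macrophage genes, 17 were detected in members, among them Cd68, Tyrobp, Fcer1g and the complement genes C1qa, C1qb and C1qc, and their summed level was 5370 to 15300 CPM in the members of the 6 libraries against 4980 to 10400 in the other macrophage nuclei. The sum was not above that of the other nuclei in VAT_24M replicate 2 (5390 against 5640) or SAT_24M replicate 2 (10300 against 10400). Itgam, the exception among the 18 genes, was at 0 in every class and library. Lists of other cell types were low in most libraries but not absent. T and NK cell genes summed to 0 to 350 CPM in members, B cell genes to 0 to 342, dendritic cell genes to 155 to 1520, and adipocyte genes to 292 to 2790. Epithelial genes summed to 158 to 1090, muscle genes to 0 to 1230, endothelial genes to 0 to 279 and mesothelial genes to 0 to 217. Fibroblast progenitor genes summed to 158 to 3040 in the members of 5 libraries and to 13400 in the 5 members of SAT_24M replicate 2, above the 10300 of general macrophage genes there.

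In which depot and at which age these nuclei occurred was asked first. The members numbered 5 and 8 in SAT_2M, 3 and 5 in SAT_24M, and 30 and 51 in VAT_24M, so that 81 of the 102 were visceral. As shares of kept nuclei these were 0.109 and 0.139%, 0.12 and 0.106%, and 0.677 and 1.01%. Exact (Clopper-Pearson) 95% confidence intervals, which cover counting error only, ran from 0.457 to 0.964% and from 0.75 to 1.32% in the VAT libraries, above the highest upper bound of the SAT libraries, 0.352%. The 24-month means were 0.841% ± 0.233 in VAT and 0.113% ± 0.0101 in SAT (SD, n = 2 libraries each), a difference of 0.728 percentage points. Both VAT libraries lay above all 4 SAT libraries, but the exact permutation test of 2 against 2 libraries gave p = 0.333 (two-sided), the smallest it can give. With age the SAT share differed by -0.0103 percentage points (SAT_24M minus SAT_2M, exact permutation p = 0.667), and the libraries of both ages overlapped. This value depended on the gates: it was -0.0522 with nuclei thinned to 1000 UMIs and -0.0525 with at least 2 macrophage UMIs, where the ages no longer overlapped (exact permutation p = 0.333 in both), and 0.0371 with no filter on nuclei.

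The same order held when only macrophages were counted. The macrophage gate used at least 2 UMIs of Csf1r, Adgre1, Lyz2 and Sirpa, the same limits on genes of other cell types, or membership. Members made up 2.76 and 3.04% of the gated nuclei in SAT_2M, 3.7 and 2.01% in SAT_24M, and 11.8 and 22.3% in VAT_24M. The VAT and SAT means at 24 months were 17% ± 7.4 and 2.86% ± 1.2 (SD, n = 2 each), 14.2 percentage points apart (exact permutation p = 0.333). With age the difference was -0.0463 percentage points (exact permutation p = 1). The gate took whichever macrophages a dissection held, and differences between libraries in the other gated cells move this share as well. With every nucleus thinned to 1000 UMIs, members were 0.0871 and 0.121% of kept nuclei in SAT_2M, 0.0402 and 0.0637% in SAT_24M, and 0.586 and 0.809% in VAT_24M.

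Background RNA was gauged in lymphocyte and adipocyte nuclei, cell types that should lack the 3 genes. Both sets were limited to nuclei with no UMI of the macrophage genes. This leaves out nuclei that carry stray macrophage RNA, so their shares may understate the background of the gated nuclei. At least 2 of their UMIs were found in 0 to 0.771% of lymphocyte nuclei and 0 to 0.615% of adipocyte nuclei of the 6 libraries. Among nuclei gated on the macrophage genes alone the share was 1.27 to 2.76% in the SAT libraries and 10 and 18.3% in the VAT libraries. Median depths were 1310 to 1570 UMIs in lymphocyte nuclei, 1760 to 2910 in adipocyte nuclei and 1420 to 1720 in the gated nuclei. The largest lymphocyte share, 0.771% in VAT_24M replicate 2 (4 of 519 nuclei), was below the 18.3% of gated nuclei there. In VAT_24M replicate 1 only 16 lymphocyte nuclei were found, and the exact 95% interval of their 0 reached 20.6%, above the 10% of gated nuclei, while the share in its 1429 adipocyte nuclei was 0.07%. In both SAT_24M libraries the exact 95% intervals of gated and lymphocyte nuclei overlapped (0.032 to 6.85% and 0.00627 to 1.37% in replicate 1, 0.441 to 4.08% and 0 to 2.64% in replicate 2), so a difference from background was not detectable there at this depth. In both SAT_2M libraries the gated interval lay above that of lymphocyte nuclei but overlapped that of adipocyte nuclei. These were 0.903 to 6.33% and 0.00555 to 1.22% in replicate 1, and 1.08 to 5.43% and 0 to 2.03% in replicate 2.

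**Figure D2:**
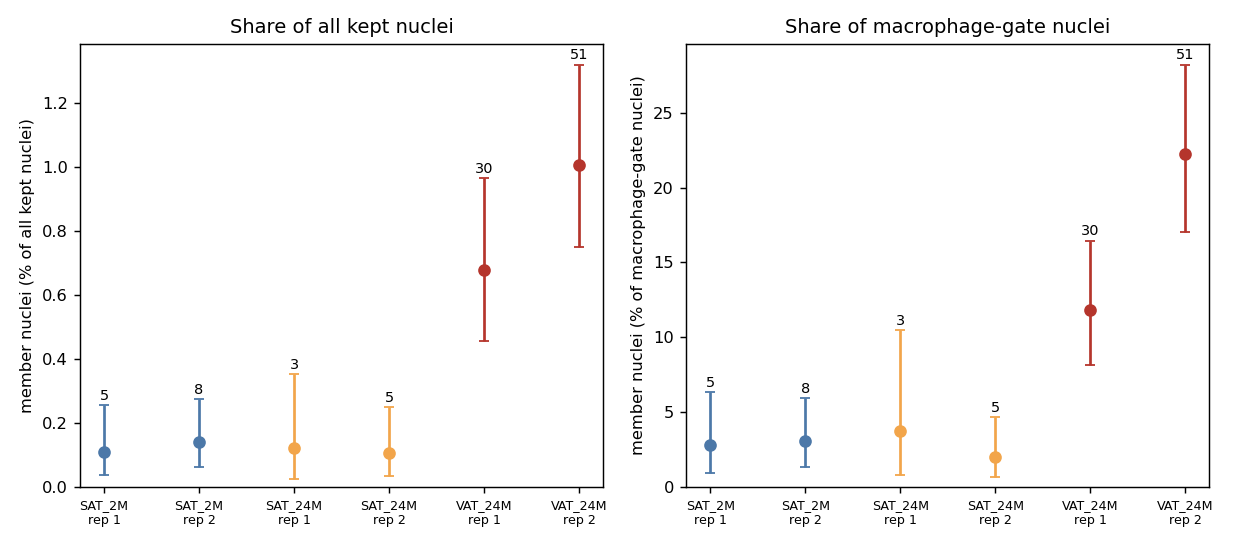
Member nuclei as a percentage of all kept nuclei (left) and of macrophage-gate nuclei (right) in each library; bars are exact 95% intervals for counting error and the numbers above them are member nuclei. The VAT_24M libraries sit at 0.677 and 1.01% on the left and at 11.8 and 22.3% on the right, above all SAT libraries.

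Genes that went with the 3 rule genes were then sought in VAT, the depot with enough members. The UMIs of the 30 and 51 members were summed per library and compared with the sums of 209 and 163 other nuclei of the macrophage gate that held no UMI of Spp1, Gpnmb or Trem2. Genes of the rule were left out of the test. Among 5011 genes tested, 115 were higher in members (2.29% of the genes tested) and 95 lower (1.9%) at an adjusted p under 0.05 (edgeR's quasi-likelihood test with library as a block, Benjamini-Hochberg adjustment). The median log2 fold change of all genes tested was -0.0674. The test rested on 2 libraries with 1 residual degree of freedom, and without the library block no gene passed (411 genes at an unadjusted p under 0.05). DESeq2 called 14 genes higher (0.279%) and 3 lower (0.0599%) on the same sums.

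Mmp12, macrophage elastase, led the list. It was at 861 and 1544 CPM in the members of VAT_24M replicates 1 and 2 and at 21.8 and 6.61 in the other macrophage nuclei, a log2 fold change of 6.25 ± 0.60 (SE, edgeR adjusted p = 1.7e-21). Mmp12 was present in 10 of 30 and 18 of 51 members, with 37.9 and 37.8% of its UMIs in the highest nucleus of each library. Mmp12 lies on chromosome 9 (GRCm39 chr9:7344381-7369499, plus strand). Atp6v0d2, a subunit of the proton pump that acidifies lysosomes and is known from osteoclasts, was at 1663 and 1384 CPM in members and at 106.5 and 16.5 in the others (log2 fold change 4.89 ± 0.55, edgeR adjusted p = 1.9e-15). It was present in 16 of 30 and 32 of 51 members and in 19 of 372 other VAT nuclei of the gate, and lies at chr4:19876838-19922614 (GRCm39, minus strand). Both libraries thus showed the same order for both genes, with members above the other nuclei.

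Lgals3, which encodes the sugar-binding lectin galectin-3 that is recruited to damaged lysosomes, was at 1663 and 1418 CPM in members and at 147 and 56.2 in the others (log2 fold change 4.02 ± 0.52, edgeR adjusted p = 9.8e-12). It was the most widespread of the genes that led the list, present in 22 of 30 and 35 of 51 members. St18, a zinc finger transcription factor better known from oligodendrocytes, was at 1039 and 1121 CPM against 62.8 and 46.3 (4.30 ± 0.51, edgeR adjusted p = 1.3e-13) and was present in 15 of 30 and 26 of 51 members. Mfge8, a secreted bridge between dying cells and phagocyte integrins, was at 223 and 572 against 27.3 and 16.5 (4.01 ± 0.58). Plk2, a kinase, was at 238 and 149 against 5.46 and 19.8, and Il7r, the receptor chain for interleukin 7, at 208 and 240 against 8.19 and 26.4. Fabp5, a fatty acid carrier, was at 134 and 80.1 against 2.73 and 13.2, from 9 and 7 UMIs in members.

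Of the remaining genes named by rank, Syngr1, a vesicle membrane protein, Galnt6, an enzyme of mucin-type glycosylation, and AU022793 were higher in both libraries but rested on 4 to 23 UMIs per library of members. Tmem267 was also called, with a log2 fold change of 4.86, although 32 of its 33 UMIs in VAT_24M replicate 2 were in 1 nucleus. DESeq2 called 7 of the 24 genes named by rank, Mmp12, Atp6v0d2, Tmem267, St18, Lgals3, Mfge8 and Il7r. Mmp12, Atp6v0d2, Fabp5, Mfge8 and several other named genes lie opposite an annotated gene on the other strand, and whether the counting used strand is not given in the sources used here, so reads of such a pair cannot be told apart.

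**Figure D3:**
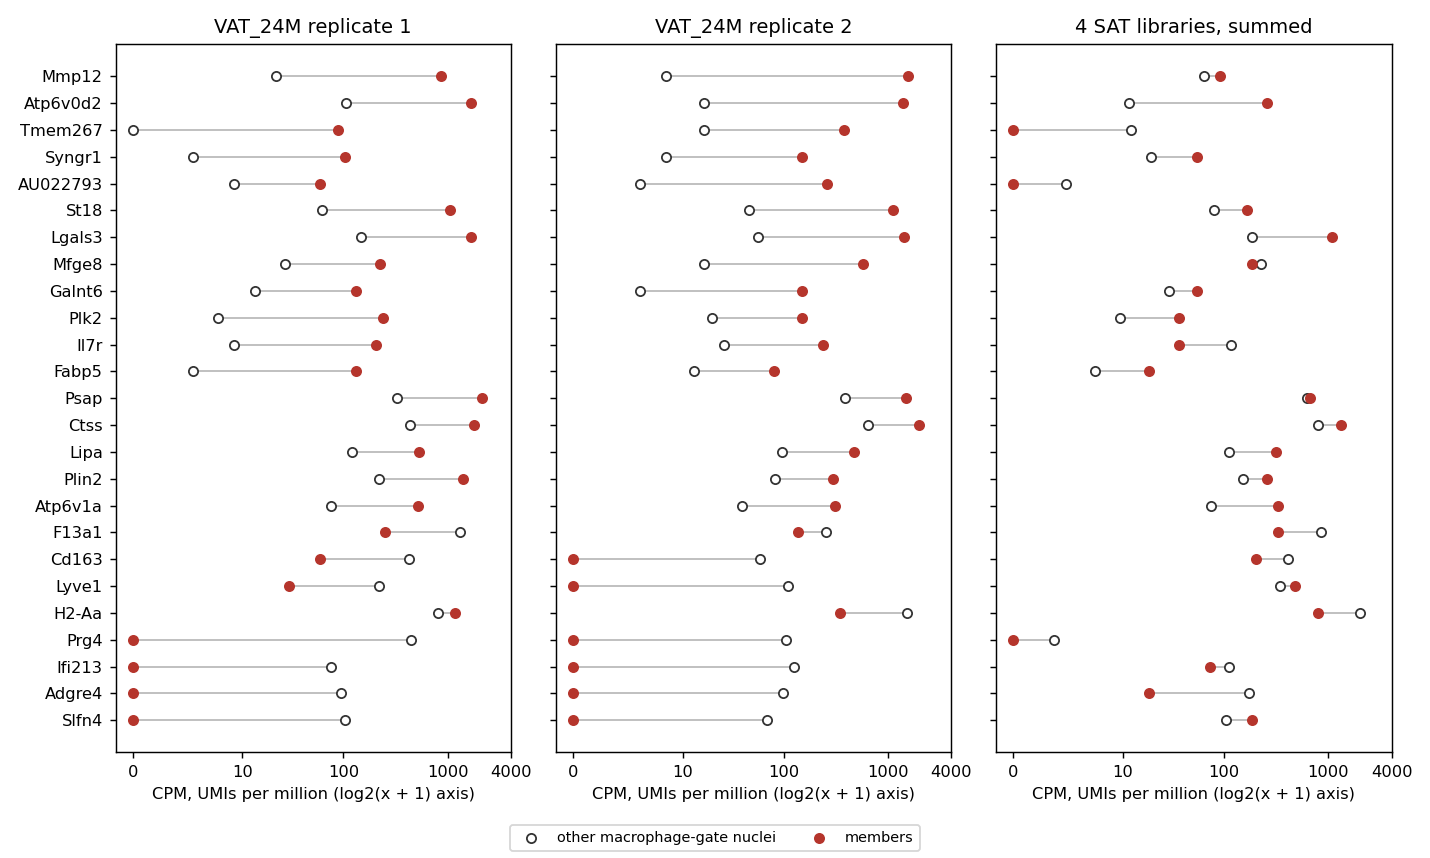
Level of 25 named genes in members (filled) and other macrophage-gate nuclei (open), as CPM on a log2(x + 1) axis, in the 2 VAT_24M libraries and in the sum of the 4 SAT libraries. Mmp12 stands at 861 and 1544 in VAT members against 21.8 and 6.61, and in SAT the 2 classes lie at 92.1 and 64.

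Lysosomal genes that passed were all higher in members. Of 34 listed genes 31 were tested, and 9 rose and none fell, with a median log2 fold change of 1.16 beside -0.0674 over all genes tested. Psap, the precursor of the saposins that present lipids to lysosomal enzymes, was at 2109 and 1476 CPM in members and 328 and 390 in the others (log2 fold change 2.30 ± 0.49, edgeR adjusted p = 0.00051). Ctss, a cysteine protease of antigen-processing cells, was at 1767 and 1979 against 431 and 635 (1.83 ± 0.49), and Ctsl, a related protease, at 1841 and 206 against 298 and 102 (1.94 ± 0.49). Ctsa, a carboxypeptidase, rose by 1.47. The proton pump gave 4 of the 9, Atp6v0d2, Atp6v1a, Atp6v1b2 and Atp6v0a1, of which Atp6v1a, its catalytic subunit, was at 520 and 309 against 76.4 and 39.7 (2.84 ± 0.49, edgeR adjusted p = 4.4e-06). Ctsb, Npc2 and Mitf had log2 fold changes of 1.42, 1.31 and 1.24 and did not pass. Lamp1 and Lamp2, the main lysosomal membrane proteins, had 0.37 and -0.48, and Tfeb and Tfe3 had 0.88 and 0.95, none of which passed. DESeq2 called 3 of the 9 (Psap, Atp6v0d2 and Atp6v1a), and with no dendritic cell genes in the comparison nuclei 1 passed (Atp6v0d2), while the list's median log2 fold changes were 1.15 and 1.05.

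The promoter windows of Gpnmb, a rule gene, of Mmp12 and of the lysosomal genes Ctss and Atp6v1a show what the known lysosomal and phagocyte elements look like where they are present. Each window holds 250 bases before and 50 bases after a gene's start and is taken from RefSeq (GRCm38.p6), printed 5′ to 3′ on the gene's strand in lower case, with motif matches in capitals. The 3 motifs searched, on both strands, were the CLEAR palindrome TCACGTGA and the M-box TCATGTGA, elements of the Mitf and Tfeb family, and the AP-1 element TGAGTCA. The first 2 differ in 1 base and cannot match the same place. Gpnmb (chr6:49036268-49036567, plus strand) has an AP-1 match on the reverse strand, the second window of Mmp12 (chr9:7347124-7347423, plus strand) an M-box match on the reverse strand and an AP-1 match, Ctss (chr3:95526536-95526835, plus strand) an M-box match, and Atp6v1a (chr16:44139210-44139509, minus strand) a CLEAR match.
Gpnmb: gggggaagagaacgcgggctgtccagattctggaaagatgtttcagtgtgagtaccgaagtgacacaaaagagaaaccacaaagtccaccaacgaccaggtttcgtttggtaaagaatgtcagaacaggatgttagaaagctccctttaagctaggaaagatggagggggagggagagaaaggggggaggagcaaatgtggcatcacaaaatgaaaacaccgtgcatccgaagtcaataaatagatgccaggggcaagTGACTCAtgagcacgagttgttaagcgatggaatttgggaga
Mmp12: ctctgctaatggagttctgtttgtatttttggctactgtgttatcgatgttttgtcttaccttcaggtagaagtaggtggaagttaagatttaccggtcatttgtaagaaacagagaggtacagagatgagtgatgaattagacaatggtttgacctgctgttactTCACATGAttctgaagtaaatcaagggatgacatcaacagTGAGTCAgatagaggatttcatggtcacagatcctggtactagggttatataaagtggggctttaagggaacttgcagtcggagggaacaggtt
Ctss: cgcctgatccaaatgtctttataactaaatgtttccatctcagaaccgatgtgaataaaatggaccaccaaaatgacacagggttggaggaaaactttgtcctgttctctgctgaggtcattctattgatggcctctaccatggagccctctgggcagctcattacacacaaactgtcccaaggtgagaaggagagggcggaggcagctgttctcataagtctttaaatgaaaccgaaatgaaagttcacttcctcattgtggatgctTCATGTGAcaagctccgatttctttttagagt
Atp6v1a: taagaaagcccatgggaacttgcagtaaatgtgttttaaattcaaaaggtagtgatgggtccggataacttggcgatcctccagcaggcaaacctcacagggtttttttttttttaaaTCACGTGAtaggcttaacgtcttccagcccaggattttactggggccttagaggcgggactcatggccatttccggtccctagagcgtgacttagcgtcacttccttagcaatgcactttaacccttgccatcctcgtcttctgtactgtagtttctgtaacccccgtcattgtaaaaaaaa
Among all 32851 windows, 0.974% held the CLEAR palindrome, 0.986% the M-box and 5.2% the AP-1 element. Of the genes tested, 3979 of 5011 had a window, and the shares were 2.61, 1.28 and 4.85%. Of the 115 genes higher in members 96 had a window, and 5 (5.21%), 3 (3.12%) and 12 (12.5%) of them held the motifs, while of the 95 lower genes 74 had a window, and 0, 0 and 5 (6.76%) did. Ctsa held 2 CLEAR matches in its second window and Psap an AP-1 match. None of the 3 motifs was found in the windows of Spp1, Trem2, Lgals3, Lipa or Cd63. The windows of Atp6v0d2, St18, Fabp5, Lpl, Atp6v1b2 and AU022793 were not analysed here. These counts describe letters in the windows, and binding was not measured.

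Genes listed for the lipid-associated state were higher in members or did not pass. Of 26 listed genes 25 were tested, and 15 rose and none fell, with a median log2 fold change of 1.74. The list was drawn up with results of these libraries known and is not independent evidence of its direction. Besides Mmp12, Atp6v0d2, Lgals3, Syngr1, Fabp5 and Ctsl, these were Cd63, a tetraspanin of lysosomes, at 1366 and 686 CPM against 265 and 175 (2.17 ± 0.46, edgeR adjusted p = 0.00051), Capg, an actin-capping protein, at 386 and 126 against 54.6 and 19.8 (2.74 ± 0.63), and Pld3, an exonuclease of endolysosomes, at 490 and 355 against 84.6 and 106 (2.13 ± 0.47). Plin2, Lipa, Lpl, Nceh1, Myo1e and Anpep made up the remainder. Myo1e, an unconventional myosin, was higher in members of replicate 1 only, at 995 against 95.5, and in replicate 2 it was at 126 against 155. Cd9, Apoe, Ctsz and Tyrobp had log2 fold changes of 1.16, 1.02, 1.10 and 1.31, and Itgax, which encodes Cd11c, had 0.57, without passing. Trpm2 had -0.69 ± 0.68 (edgeR adjusted p = 0.81). DESeq2 called 4 of the 15 (Cd63, Lgals3, Mmp12 and Atp6v0d2), and 3 of them passed without dendritic cell genes in the comparison nuclei (Lgals3, Mmp12 and Atp6v0d2), with medians of 1.62 and 1.66.

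Some genes of lipid uptake and storage were higher in members. Of 28 listed genes of lipid uptake, storage and export 24 were tested, and 6 rose and none fell, with a median log2 fold change of 1.06. Among those that rose were genes that act in uptake (Lpl, the lipase that frees fatty acids from lipoproteins), in storage (Plin2, the coat protein of lipid droplets), in the release of cholesterol from its esters (Lipa in the lysosome and Nceh1 outside it) and in fatty acid transport (Fabp5). Plin2 was at 1381 and 297 CPM in members against 218 and 82.7 (2.30 ± 0.48, edgeR adjusted p = 0.00035). Lipa was at 535 and 469 against 120 and 95.9 (2.21 ± 0.47), and Nceh1 at 416 and 229 against 109 and 66.1 (1.86 ± 0.50). Lpl was at 2866 and 583 against 860 and 238 (1.53 ± 0.49, edgeR adjusted p = 0.046). Cd36, the fatty acid translocase, was at 3801 and 583 against 1747 and 241 (1.19 ± 0.52) and did not pass. The cholesterol exporters Abca1 and Abcg1 had -0.01 and 1.11, Nr1h3, the liver X receptor alpha, had 0.70, and Soat1 and Lrp1 had 1.30 and 1.34, none of which passed. Fabp4, shared with adipocytes, was at 1826 and 709 in members and 3374 and 470 in the others, in opposite order in the 2 libraries. None of the 6 calls held in DESeq2 (0 of 24) or without dendritic cell genes in the comparison nuclei (0 of 20 tested), where the list's median log2 fold changes were 1.08 and 1.09.

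Few partners of Trem2 and of osteopontin passed, and of those DESeq2 called Mmp12 alone. Of 14 genes of Trem2 signalling 10 were tested and 1 rose, Ms4a7, a tetraspan membrane protein of macrophages, at 238 and 503 CPM against 76.4 and 95.9 (2.03 ± 0.48, edgeR adjusted p = 0.0025), while Tyrobp, Syk and Plcg2 had log2 fold changes of 1.31, 0.57 and -1.06. Of 20 osteopontin receptors and matrix genes 18 were tested, and 2 rose (Mmp12 and Itgav, the alpha-v integrin) and 2 fell (Fn1, fibronectin, and Mmp9, gelatinase B). Mmp9 had no UMI in members and passed the filter on low counts through the other nuclei alone. Fn1 was at 282 and 45.8 in members against 1127 and 314 (-2.27 ± 0.52, edgeR adjusted p = 0.0015). Cd44, the other osteopontin receptor, was at 446 and 297 against 175 and 178 (1.04 ± 0.46) without passing. Of 12 osteoclast genes 5 were tested, and Atp6v0d2 rose and Mmp9 fell, the latter with the same limit. Calcr, Oscar and Car2 were at 0 in all members, and Ctsk, Dcstamp and Ocstamp had 6, 1 and 1 UMIs.

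More resident macrophage genes fell than rose in VAT members. Of 19 listed genes 17 were tested, and 5 fell and 1 rose, with a median log2 fold change of -0.99. Over all 5011 genes tested 1.9% fell and 2.29% rose, with a median of -0.0674. Lyve1, a hyaluronan receptor, was at 29.7 and 0 CPM in members and at 221 and 109 in the others (-3.59 ± 0.91, edgeR adjusted p = 0.0056). Cd163, the haemoglobin scavenger receptor, was at 59.4 and 0 against 426 and 59.5 (-3.12 ± 0.76), F13a1, a coagulation factor subunit, at 252 and 137 against 1299 and 255 (-1.69 ± 0.50), and Cd209f and Rbpj also fell. Lyve1 was present in 1 and Cd163 in 2 of the 81 VAT members, so both passed the filter on low counts mainly through the other nuclei. Mrc1, the mannose receptor, was at 772 and 423 against 1324 and 460 (-0.46 ± 0.47) and did not pass. Mertk, a receptor for the uptake of dying cells, rose to 549 and 1029 from 240 and 198 (1.79 ± 0.46, edgeR adjusted p = 0.0063). General macrophage genes had a median of 0.56, and 1 of 17 tested rose, the endolysosomal glycoprotein Cd68, at 817 and 217 against 131 and 116. None of these calls in resident and general macrophage genes held in DESeq2 or without dendritic cell genes in the comparison nuclei (0 of 17 resident genes in each, with medians of -1.29 and -0.68). In the SAT fit (edgeR's quasi-likelihood test) none of 19 resident genes passed (median -0.50). Lyve1 was present in 28.6% of SAT members and 15.7% of the other SAT nuclei, Cd163 in 23.8 and 17.6% and F13a1 in 38.1 and 31.3%, and the resident genes summed to more in members than in the others in SAT_2M replicate 2 (15800 against 4720 CPM) and to less in the other SAT libraries.

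Antigen presentation and inflammatory genes gave no calls in VAT. All 7 genes of MHC class II presentation had negative log2 fold changes (median -1.08), none of which passed, and the libraries differed. H2-Aa was at 1158 CPM in the members of replicate 1 against 800 in the others, and in replicate 2 at 343 against 1504. In the fit of the 4 SAT libraries, H2-Aa, H2-Ab1, H2-Eb1 and Cd74 were lower in members (log2 fold changes -2.71, -2.38, -2.74 and -2.39), while 16 genes in all (0.555% of 2884) were lower there. The libraries differed here too, since the MHC class II genes summed to 7360 CPM in the 5 members of SAT_2M replicate 1 against 7120 in the others, and to less in members in the other SAT libraries. Dendritic cell genes summed to 983 to 1700 CPM in the other SAT nuclei and to 155 to 1520 in SAT members, all 5 that could be tested had negative log2 fold changes (median -1.16) without passing, and Ebf1, a gene of B cells and of preadipocytes, was among the 16. All 7 adipocyte genes tested (median -2.13, with Ghr among the 16) and all 7 fibroblast progenitor genes tested (median -1.15) also had negative log2 fold changes. The part of these markers in the MHC class II difference was not tested. Of 20 inflammatory genes only 6 had enough UMIs to be tested and none passed. Il6, Nos2 and Ptgs2 were at 0 in all members, Il1b had 3 UMIs and Tnf 8. Mki67, a marker of dividing cells, was present in 1 of 81 VAT members and in 22 of 372 other VAT nuclei of the gate. In SAT it was present in 0 of 21 members and in 37 of 728 other nuclei.

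**Figure D4:**
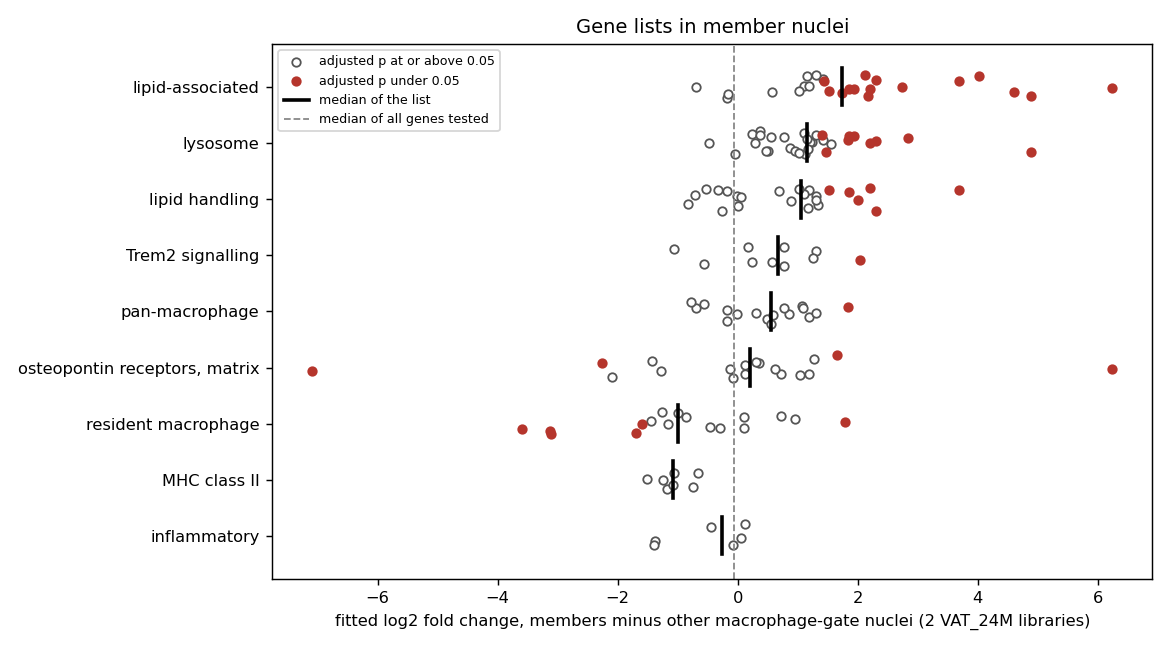
Fitted log2 fold change of each tested gene of 9 lists, members minus other macrophage-gate nuclei of the 2 VAT_24M libraries; filled points passed at an adjusted p under 0.05, the bar is the list's median and the dashed line the median of all genes tested. The medians run from 1.74 for lipid-associated genes to -1.08 for MHC class II genes.

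The 12 lower genes named by rank had no UMI in the members of either VAT library, so only bounds can be given, taken against a floor of 3 UMIs over both libraries. Prg4, lubricin, was at least 15-fold lower, with 445 and 106 CPM in the other nuclei. Ifi213, an interferon-inducible gene, Adgre4, an adhesion receptor of myeloid cells, Mmp9 and Slfn4, a Schlafen family gene of myeloid cells, were at least 5.09-, 5.01-, 4.71- and 4.55-fold lower. Ppara, Rapgef5, Ppp1r13b, Nr2f2, Gcnt2, St3gal6 and Foxp2 were at least 3.39- to 3.93-fold lower. These genes passed the filter on low counts through the other nuclei alone, and DESeq2 called none of them. In SAT, where members were few, Ifi213 was at 73.7 CPM in members against 112 and Slfn4 at 184 against 104.

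The comparison nuclei also held RNA of other cell types, whose part in these counts was not tested beyond the alternatives given here. In VAT_24M replicate 1 adipocyte genes summed to 7930 CPM in the other macrophage nuclei and 2790 in members, and fibroblast progenitor genes to 6070 and 3040, while in replicate 2 the sums were 774 and 801, and 913 and 1100. Ghr, the growth hormone receptor of adipocytes, and Pi16 and Dpp4, markers of fibroblast progenitors, were among the genes lower in members. Dendritic cell genes summed to 322 and 787 in the other nuclei and 223 and 309 in members, with Xcr1 and Cd209a at 0 in members. Cyp11a1, a gene of steroid synthesis, was at 0 in replicate 1 and at 1164 in the other nuclei of replicate 2 against 68.6 in members. When comparison nuclei with dendritic cell genes were left out, 7 genes were higher (0.211%) and 2 lower (0.0604%) of 3314 tested, where 5011 had been tested before, and Mmp12, Atp6v0d2 and Lgals3 still passed. When only nuclei of the resident type (at least 2 UMIs of Mrc1 and F13a1) served as comparison, 24 genes were higher (1.28%) and 28 lower (1.49%) of 1877 tested, with 6 of 22 lipid-associated and 3 of 23 lysosomal genes higher (Lgals3, Lipa, Plin2, Mmp12, Atp6v0d2 and Myo1e, and Lipa, Atp6v0d2 and Atp6v1a).

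Subcutaneous members were set beside the visceral ones. With 21 members and 54274 UMIs in 4 libraries, none of 22 lipid-associated genes tested passed (edgeR's quasi-likelihood test, median log2 fold change 0.55), and of 2884 genes 4 were higher (0.139%) and 16 lower. Lgals3 was at 1069 CPM in SAT members against 185 in the other nuclei (1.95, edgeR adjusted p = 0.094) and Atp6v0d2 at 258 against 11.5 (3.29, edgeR adjusted p = 0.12), both in the order seen in VAT without passing. The Atp6v0d2 UMIs were in 3 of the 21 SAT members, all of SAT_24M, with 64.3% of them in 1 nucleus. Mmp12 was at 92.1 against 64, from 5 UMIs in members, Mfge8 at 184 against 226 and Il7r at 36.9 against 116. The difference between the depots was tested as an interaction over 4711 genes, of which 4 passed (0.0849%) and 282 had an unadjusted p under 0.05. Mmp12 (difference of log2 fold changes, VAT minus SAT, 6.15, edgeR adjusted p = 8.8e-05), Mfge8 (4.92, edgeR adjusted p = 0.0014) and Il7r (5.92, edgeR adjusted p = 0.0068) were 3 of them, and the fourth, Gm2682, was named after its values were seen. For Atp6v0d2 and Lgals3 the differences were 1.60 and 2.12 and did not pass. Age and depot cannot be told apart in this contrast, since the SAT members came from both ages and the VAT members from 24 months alone.

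Member nuclei differed among themselves. At least 1 UMI of Mmp12, Atp6v0d2 or Lgals3, none of which is in the rule, was present in 24 of 30 members of VAT_24M replicate 1 (80%, exact 95% interval 61.4 to 92.3%), in 43 of 51 of replicate 2 (84.3%, 71.4 to 93%) and in 11 of the 21 SAT members (52.4%, 29.8 to 74.3%). Among the other macrophage-gate nuclei the share was 54 of 372 in VAT (14.5%) and 22.4% of 728 in SAT. The 3 genes were picked from those that led the list in these same VAT nuclei. The VAT shares thus follow from that choice and give no separate support. All 3 genes together were found in 7 and 13 of the VAT members, in none of the SAT members and in 2 of the 372 other VAT nuclei. At these depths a gene without a UMI in a nucleus may still be expressed there.

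Resident genes did not divide the members cleanly. Of the 102 members 29 held at least 2 UMIs of Mrc1 and F13a1 and 62 held none. In VAT_24M replicate 1, the 10 members with these genes and the 16 without had Gpnmb at 3060 and 3610 CPM, Atp6v0d2 at 1170 and 2110, Lgals3 at 1130 and 1740 and Mmp12 at 454 and 1470. In VAT_24M replicate 2, the 11 with and the 34 without had Gpnmb at 5800 and 4780, Atp6v0d2 at 995 and 1630, Lgals3 at 1170 and 1660 and Mmp12 at 3330 and 918. Atp6v0d2 and Lgals3 were lower in the nuclei with resident genes in both libraries, whereas Mmp12 was lower in 1 library and higher in the other, where 51 of its 77 UMIs were in 1 nucleus. Without the highest nucleus of each set Mmp12 kept both orders, at 288 and 779 in replicate 1 and at 1440 and 691 in replicate 2. These are sums over few nuclei of single libraries and were not tested.

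Members with Spp1 were compared with those that held Gpnmb alone. In VAT_24M replicate 1, the 7 members with any Spp1 and the 12 with Gpnmb alone had Lyz2 at 4480 and 1810 CPM, Lgals3 at 2380 and 1230, Atp6v0d2 at 497 and 2160 and Mmp12 at 276 and 1160. In VAT_24M replicate 2, the 13 with Spp1 and the 24 with Gpnmb alone had Lyz2 at 3410 and 763, Lgals3 at 1850 and 1170, Atp6v0d2 at 927 and 1630 and Mmp12 at 1560 and 992. Lyz2 and Lgals3 were higher and Atp6v0d2 lower with Spp1 in both libraries. The gap of Lgals3 in replicate 1 rested on 1 nucleus with 22 of the 43 UMIs, without which the level with Spp1 was 1290, beside 1230 with Gpnmb alone. Mmp12 took opposite orders. In replicate 1 all 5 of its UMIs in members with Spp1 were in 1 nucleus, and the level with Gpnmb alone was 330 without the nucleus that held 22 of 30 UMIs, still above that with Spp1. In replicate 2 the level with Spp1 was 750 without the highest nucleus, below the 992 with Gpnmb alone. The rule let nuclei in through Lyz2 as well, and these splits were not tested.

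The 3 rule genes were last read in all macrophages, gated on Csf1r, Adgre1, Lyz2 and Sirpa without regard to them, in 79 to 262 nuclei per library. Gpnmb was at 309 and 54.2 CPM in SAT_2M, 98.9 and 38.5 in SAT_24M, and 476 and 887 in VAT_24M. Both VAT libraries lay above all SAT libraries (VAT_24M minus SAT_24M, log2 fold change 3.47 ± 0.81, unadjusted p = 0.0016, edgeR adjusted p = 0.32). Gpnmb is a gene of the rule, and its UMIs in the VAT gate are largely those of the members. This contrast therefore restates the member share and gives no separate support. Whether Gpnmb passed depended on the fit. It did in DESeq2 (log2 fold change 3.40) and with no filter on low counts. It did not with scaling by library size alone or with libraries of equal number paired. Without VAT_24M replicate 1 the log2 fold change was 3.86. Trem2 was at 71.9 and 32.9 in SAT_2M, 7.61 and 25.7 in SAT_24M, and 83.4 and 78.3 in VAT_24M (2.01 ± 0.61, edgeR adjusted p = 0.63). Spp1 followed the nuclei that carried it, at 1643 and 1.94, 0 and 210, and 28.5 and 85.9. Atp6v0d2 was at 7.99 and 5.81, 83.7 and 27.8, and 404 and 250, higher in VAT than in SAT at 24 months by 2.80 ± 0.55 (edgeR adjusted p = 0.19) and higher in SAT at 24 than at 2 months by 2.85 ± 0.72 (edgeR adjusted p = 0.59), with no overlap between libraries in either contrast. The order with age rested on few UMIs, 3 and 3 in SAT_2M and 11 and 13 in SAT_24M. Of the 13 in SAT_24M replicate 2, 9 were in 1 nucleus. Anpep, an aminopeptidase of the lipid-associated list, was at 195 and 341 in VAT_24M and 30.4 and 66.3 in SAT_24M (2.33 ± 0.46, edgeR adjusted p = 0.19). Mfge8, which was higher in VAT members than in their neighbours, was at lower levels in VAT than in SAT macrophages as a whole at 24 months, at 54.8 and 119 against 251 and 227, without passing (-1.45 ± 0.44, edgeR adjusted p = 0.63).

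None of 9408 genes passed in either contrast (0% with edgeR's quasi-likelihood test), with 682 genes at an unadjusted p under 0.05 for age and 553 for depot. DESeq2 called 5 genes higher and 3 lower with age, and 12 higher and 9 lower in VAT. The 12 include Gpnmb, which as a gene of the rule gives no separate support. Gpnmb differed by -1.46 ± 0.79 and Trem2 by -1.26 ± 0.62 with age in SAT, and neither passed. The members themselves were not compared between groups per gene, since that fit was set to take libraries with at least 20 members and no SAT library held so many. The difference in Gpnmb of all gated macrophages holds both the number of members and their level, which cannot be told apart in these sums.

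**Figure D5:**
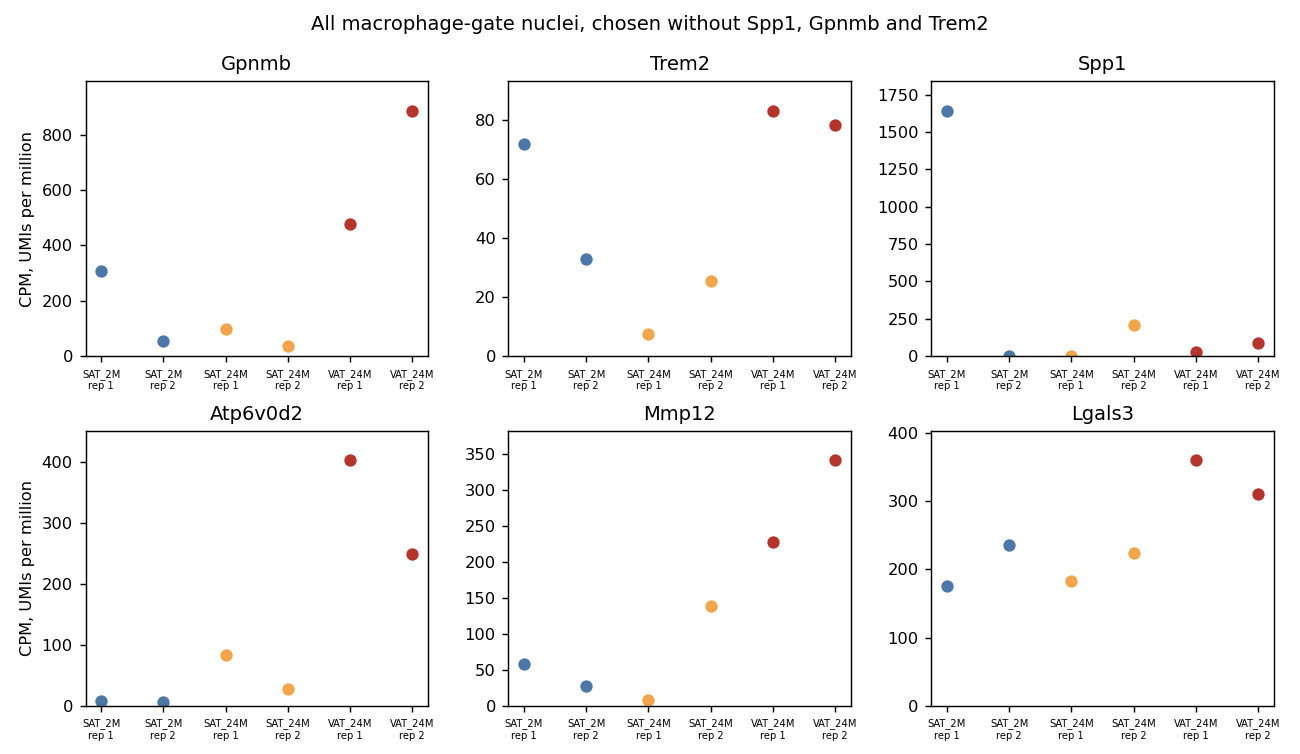
CPM (y axis) of Gpnmb, Trem2, Spp1, Atp6v0d2, Mmp12 and Lgals3 in the summed macrophage-gate nuclei of each library (x axis), gated without Spp1, Gpnmb and Trem2; 1 point is 1 library. Gpnmb stands at 476 and 887 in VAT_24M and between 38.5 and 309 in the SAT libraries.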

How the data were processed

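Raw UMI counts per gene and nucleus were used as deposited. Per the labels, nuclei were processed with a Singleron GEXSCOPE single-nucleus kit and sequenced on an Illumina HiSeq X10, although another label field names 10x Genomics, and per the study's methods the authors aligned reads with CeleScope to GRCm39 and made the count matrices. The CeleScope version, the gene annotation and the use of strand are not given in the sources used here. The deposited barcodes per library equal the nuclei that the methods give as loaded, and the numbers the methods give after filtering differ from those kept here in all 6 libraries. Following the study's filters, a nucleus was kept if it had more than 500 genes and 1000 UMIs, with a mitochondrial share below 15%.

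The rule for members, the gene lists and the tests were chosen with earlier results of these data known. Nuclei are not replicates, so UMIs were summed per library and class, and a library entered a fit with at least 20 nuclei per class, which left the VAT_24M libraries for members against other macrophage-gate nuclei. Fits of the 4 SAT libraries, of all 6 libraries and of the difference between depots, added after seeing the data, took SAT libraries with 3 to 8 members. Fits used edgeR 4.0.16 (quasi-likelihood, TMM scaling, filterByExpr) in R 4.3.3, with library as a block where classes of 1 library were compared, two-sided p-values and Benjamini-Hochberg adjustment over all genes tested other than those of the rule. The exception was the contrasts between groups of macrophage-gate nuclei, where Spp1, Gpnmb and Trem2 were tested and adjusted with the rest. DESeq2 1.42.0 was an alternative. Scripts were tested on simulated counts. CPM were computed from the summed UMIs of each class. Shares were compared by exact permutation over libraries. Exact (Clopper-Pearson) 95% intervals and floors of 3 UMIs cover counting error only. Libraries of a group came from separate mice per the study's text, and the SAT and VAT libraries of 24 months from the same mice, which the fits without a block treat as independent.

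Beyond the lists, genes were named by rank: per direction the 12 with the largest fitted fold change among those past an adjusted p of 0.05, changed the same way in both libraries, at 20 CPM or more in the higher class and with a gene symbol. Gene positions and strands came from GENCODE on GRCm39, promoter windows from RefSeq on GRCm38.p6. Scrublet was run from scanpy 1.11.5 under Python 3.11.15, intervals and permutations used scipy 1.17.1, and tables pandas 2.3.3. Values of a few listed genes are not reported here.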

Additional observations from a re-analysis of the deposited data

Results flagged for a closer look

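For 3 named genes, of 4 called, the difference between members and other macrophage-gate nuclei itself differed between VAT and SAT, by an interaction term in edgeR's quasi-likelihood test over 4711 genes. The VAT log2 fold change exceeded that of SAT by 6.15 for Mmp12, by 4.92 for Mfge8 and by 5.92 for Il7r. The SAT side rested on 21 members, in which Mmp12 had 5 UMIs, Mfge8 10 and Il7r 2, and 3 of the 5 Mmp12 UMIs, 5 of the 10 Mfge8 UMIs and both Il7r UMIs were in the highest nucleus.

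Among the barcodes that failed the filters on nuclei, which entered only the alternative with no filter on nuclei, 60 of 23785 met all the gene gates of the members. They numbered 1 and 1 in SAT_2M, 6 and 6 in SAT_24M, and 12 and 34 in VAT_24M. As shares of the failing barcodes these were 0.0306 and 0.0435%, 0.164 and 0.125%, and 0.343 and 0.542%. Of the 34 in VAT_24M replicate 2, 29 had 1000 or fewer UMIs and 8 had 15% or more mitochondrial UMIs.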

How the results depend on the processing

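In all alternatives run the member share stayed higher in VAT than in SAT at 24 months, by 0.509 to 0.735 percentage points of kept nuclei with both VAT libraries, and by 0.563 to 0.893 points (8.96 to 19.4 points of macrophage-gate nuclei) when 1 library was left out. The age difference in SAT, -0.0103 points of kept nuclei and -0.0463 of gated nuclei, turned to 0.0371 and 0.968 with no filter on nuclei, became -0.0522 and -1.58 with nuclei thinned to 1000 UMIs, -0.0525 and -1.28 with at least 2 macrophage UMIs and -0.0326 and -0.734 with at least 3 UMIs of the 3 genes (exact permutation p = 0.333 in all 6, the smallest possible, so that the libraries of both ages no longer overlapped), and ranged from -0.0252 to 0.00452 and from -0.894 to 0.802 when 1 library was left out. The 115 higher and 95 lower genes in members became 24 and 28 against resident-type nuclei, 202 and 220 with a comparison gate of 1 macrophage UMI, 36 and 19 with at least 3 UMIs of the 3 genes, 68 and 54 with no UMI of the exclusion genes, 0 and 0 without the library block, 54 and 58 with no filter on low counts, 14 and 3 by DESeq2, and 71 higher by library size alone. Chosen after seeing the data, leaving dendritic cell genes out of the comparison gave 7 and 2, all 6 libraries 25 and 80, and the 4 SAT libraries 4 and 16, where Mfge8 (-0.88), Il7r (-2.10) and Slfn4 (0.16) took the opposite sign. Of the 105 calls with all 6 libraries, 55 were also made with the VAT libraries alone. Of the 24 genes named by rank, 7 kept their call in DESeq2, 11 with at least 3 UMIs of the 3 genes and none without the library block.

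In the macrophage gate, where edgeR's quasi-likelihood test called no gene, no filter on low counts called 73 higher and 37 lower with age and 114 and 35 by depot, and DESeq2 called 5 and 3, and 12 and 9. Leaving out 1 library gave 0 to 50 higher and 0 to 25 lower genes with age and 0 to 69 and 0 to 43 by depot, the highest counts being those without a VAT_24M library (50 and 25, and 69 and 43, without replicate 1, and 50 and 24, and 56 and 40, without replicate 2), a fit in which the lone VAT_24M library is assumed to vary like the other groups, and 1 gene was higher with age without SAT_24M replicate 1. The cause was not tested. When 1 library was left out the age difference ranged from -2.23 to 0.26 for Gpnmb and from -11.2 to 5.78 for Spp1, both highest without SAT_2M replicate 1, and the depot difference of Spp1 from -2.09 to 7.44, highest without SAT_24M replicate 2 (the -11.2 and 7.44 are set against a lone SAT_24M library with 0 Spp1 UMIs, so they depend on the prior count and are no measure of size), while Trem2 ranged from -2.68 to -0.66 with age and from 1.64 to 3.44 by depot (-2.68 and 3.44 without SAT_24M replicate 2, -0.66 without SAT_2M replicate 1). A replicate block, which pairs libraries of equal number, called 0 genes in both contrasts, with 592 and 454 genes at an unadjusted p under 0.05. The deviations of same-numbered libraries correlated at -0.0276, 0.0253 and -0.133, so the numbers are not taken as a pairing, and with the VAT numbers crossed 2 genes were called higher. Members with at least 2000 UMIs were not compared, since the VAT libraries held 15 and 13 of them, fewer than the 20 that a fit was set to need.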
